A study of Arabidopsis thaliana with 16 samples.

Results

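The dehydrin family of Arabidopsis thaliana was followed by locus identifier through 16 libraries of mature dry seeds: RAB18 (AT5G66400), AT1G54410, ERD10 (AT1G20450), COR47 (AT1G20440), ERD14 (AT1G76180), AT2G21490, XERO1 (AT3G50980), XERO2 (AT3G50970), AT4G38410 and AT4G39130, 10 of the 37336 identifiers counted. The seeds came from 4 genotypes with 4 libraries each. The double mutant brm-3dog1-4 carries both mutant alleles. The brm-3 single mutant has a T-DNA in BRAHMA (BRM), the ATPase of a SWI/SNF chromatin remodeling complex, and is described as making a BRM protein without its bromodomain. It is used because a BRM knockout is sterile, so neither brm-3 nor brm-3dog1-4 is a null for BRM. The dog1-4 single mutant is an insertion line of DELAY OF GERMINATION 1 (DOG1), a regulator of seed dormancy, and Col-0 is the wild type. All plants grew in soil in a long-day greenhouse, and the libraries were made by 3′RNA-Seq, in which reads start near the poly(A) tail, so counts were not divided by transcript length. Per the labels the 4 libraries of a genotype are biological replicas; the number of plants behind each RNA-Seq sample was not stated, so p-values measure the spread between these libraries.

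Dehydrins are late embryogenesis abundant (LEA) proteins: highly hydrophilic, largely unfolded in solution, and made in embryos before desiccation and in vegetative tissue under drought, cold and abscisic acid (ABA). Their shared mark is the K-segment, a lysine-rich stretch that can fold into a helix on membranes and on partly unfolded enzymes. Some members add a Y-segment near the N terminus or a run of serines that kinases phosphorylate. Their genes are classical targets of ABA-responsive bZIP factors, which bind ABRE sites, and of the cold and drought factors of the CBF/DREB class, which bind DRE sites.

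The stretch that defines the family is shown as the bases that code for the best-matching K-segment of each of the 7 members that could be tested, read from the RefSeq TAIR10.1 genome on the strand of each gene with lysine codons in capitals. They lie at chr5:26518523-26518567 (RAB18), chr2:9206233-9206277 (AT2G21490), chr3:18942665-18942709 (XERO1), chr3:18941350-18941394 (XERO2), chr4:18228201-18228245 (AT4G39130), chr1:20310437-20310481 (AT1G54410) and chr1:28587061-28587105 (ERD14), all in coding exons.
RAB18: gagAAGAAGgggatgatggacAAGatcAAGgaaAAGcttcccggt
AT2G21490: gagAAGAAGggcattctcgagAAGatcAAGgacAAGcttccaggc
XERO1: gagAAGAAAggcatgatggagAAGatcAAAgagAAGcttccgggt
XERO2: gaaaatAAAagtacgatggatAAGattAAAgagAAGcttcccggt
AT4G39130: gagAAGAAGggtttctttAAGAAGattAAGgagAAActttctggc
AT1G54410: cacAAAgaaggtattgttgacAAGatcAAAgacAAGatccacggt
ERD14: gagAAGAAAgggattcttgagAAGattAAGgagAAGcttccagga
The translated coding sequences held 2 K-segments in RAB18, AT2G21490, XERO1, ERD14 and AT4G38410, 3 in ERD10 and COR47, 6 in XERO2 and 1 each in AT1G54410 and AT4G39130, counting windows of 15 residues with at least 8 identical to the usual consensus. A Y-segment core was found in 4 proteins (RAB18, AT2G21490, XERO1 and AT4G39130), and a run of at least 4 serines in all but XERO2 and AT4G39130. AT1G54410 was the shortest protein, with 98 residues of which 13.3% were histidine, and XERO2 had 13.5% histidine. The serine-run proteins without a Y-segment were AT1G54410, ERD14, ERD10, COR47 and AT4G38410. This split ran parallel to the transcript levels in wild-type seeds. It joins the Y-segment and the serine run, and was drawn with the levels known. Neither feature alone separates the levels: XERO2 has no Y-segment, and RAB18, AT2G21490 and XERO1 have a serine run. The 5 members with a Y-segment or without a serine run had between 63.7 and 67882 CPM (the count over the TMM-adjusted sum of the tested genes' counts, times 1000000) in single Col-0 libraries, and the 5 with a serine run and no Y-segment had at most 3.53 CPM there.

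**Figure D1:**
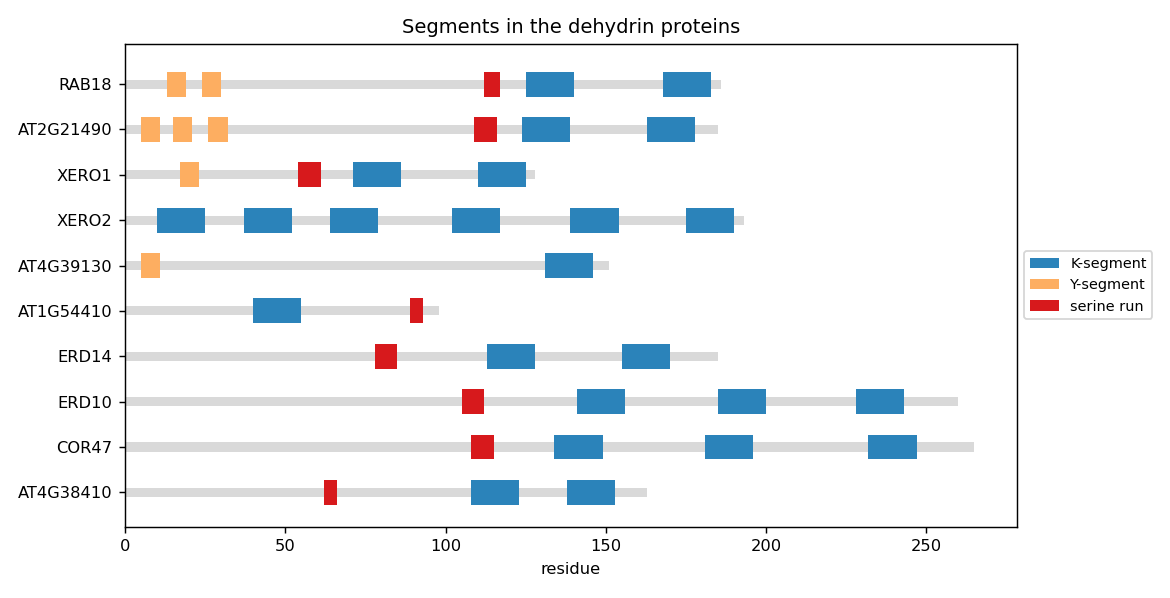
Positions of K-segments (blue), Y-segment cores (orange) and serine runs (red) along the 10 translated dehydrins, in residues from the N terminus. XERO2 carries 6 K-segments and nothing else that was searched, and the Y-segment cores sit near the N terminus of RAB18, AT2G21490, XERO1 and AT4G39130.

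RAB18 lies at chr5:26518277-26519447 (minus strand, TAIR10.1) and overlaps the first bases of AT5G66410 on the other strand by 11 bases. AT5G66410 had between 3 and 25 counts per library, against at least 28103 for RAB18. XERO2 (chr3:18940643-18941611) and XERO1 (chr3:18941925-18942940) are neighbours on the plus strand with 313 bases between them, and COR47 (chr1:7084409-7086873) and ERD10 (chr1:7087903-7089606) are neighbours on the minus strand of chromosome 1 with 1029 bases between them. AT1G54410 (chr1:20309473-20310850), ERD14 (chr1:28586663-28587931), AT2G21490 (chr2:9205990-9207125) and AT4G39130 (chr4:18228118-18228854) are on the minus strand, and AT4G38410 (chr4:17980678-17981766) is on the plus strand.

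Because the members moved in opposite directions, the 250 bases before the annotated gene start are shown for the most abundant member, for the neighbours XERO1 and XERO2, and for AT1G54410 and ERD14. The windows are chr5:26519448-26519697 for RAB18, chr3:18941675-18941924 for XERO1, chr3:18940393-18940642 for XERO2, chr1:20310851-20311100 for AT1G54410 and chr1:28587932-28588181 for ERD14, each on the strand of its gene. The window of RAB18 lies inside AT5G66410. Capitals mark the ABRE core (ACGTG, or CACGT on the other strand), the DRE core (CCGAC, or GTCGG) and the RY element (CATGCA, or TGCATG), the site of the seed B3 factors.
RAB18: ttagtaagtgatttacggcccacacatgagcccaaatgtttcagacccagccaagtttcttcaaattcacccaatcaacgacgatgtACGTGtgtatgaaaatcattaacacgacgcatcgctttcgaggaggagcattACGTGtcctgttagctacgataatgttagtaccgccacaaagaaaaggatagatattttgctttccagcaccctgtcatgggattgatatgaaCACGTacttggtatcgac
XERO1: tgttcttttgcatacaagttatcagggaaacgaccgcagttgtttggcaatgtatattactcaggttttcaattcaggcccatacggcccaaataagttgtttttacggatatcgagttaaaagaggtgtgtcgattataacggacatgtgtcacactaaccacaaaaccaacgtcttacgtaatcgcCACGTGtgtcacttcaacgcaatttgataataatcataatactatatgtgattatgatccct
XERO2: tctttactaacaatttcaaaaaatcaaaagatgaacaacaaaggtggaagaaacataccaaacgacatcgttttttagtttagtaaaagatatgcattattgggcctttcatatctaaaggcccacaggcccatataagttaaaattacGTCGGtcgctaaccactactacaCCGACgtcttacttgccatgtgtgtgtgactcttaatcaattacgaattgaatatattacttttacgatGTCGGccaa
AT1G54410: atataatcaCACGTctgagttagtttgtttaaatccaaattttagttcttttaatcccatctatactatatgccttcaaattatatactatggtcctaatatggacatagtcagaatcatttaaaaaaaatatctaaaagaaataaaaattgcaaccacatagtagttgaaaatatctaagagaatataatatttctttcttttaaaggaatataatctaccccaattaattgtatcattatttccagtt
ERD14: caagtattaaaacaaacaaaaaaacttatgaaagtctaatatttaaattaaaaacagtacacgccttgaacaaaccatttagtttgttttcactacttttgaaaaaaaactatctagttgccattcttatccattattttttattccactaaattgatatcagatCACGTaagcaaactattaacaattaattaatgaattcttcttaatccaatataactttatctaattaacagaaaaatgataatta
RAB18 held 3 ABRE cores. XERO1 held CACGTG, which reads as an ABRE core on both strands, and no DRE core, whereas XERO2 held 3 DRE cores and no ABRE core. AT1G54410 and ERD14 held 1 ABRE core each. AT2G21490 held 1 ABRE core, 1 DRE core and 2 RY elements, and AT4G39130 held a CACGTG and 3 RY elements, of which a pair overlap. An ABRE core was present in 7 of the 10 windows, against 22.9% of the windows of 27443 protein-coding genes, a DRE core in 2 against 12% of all windows, and an RY element in 3 against 8.43%. ERD10 held none of the 3 motifs, COR47 only an RY element and AT4G38410 only ABRE cores, 2 of them. A match is a string of letters and not a measured binding site.

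**Figure D2:**
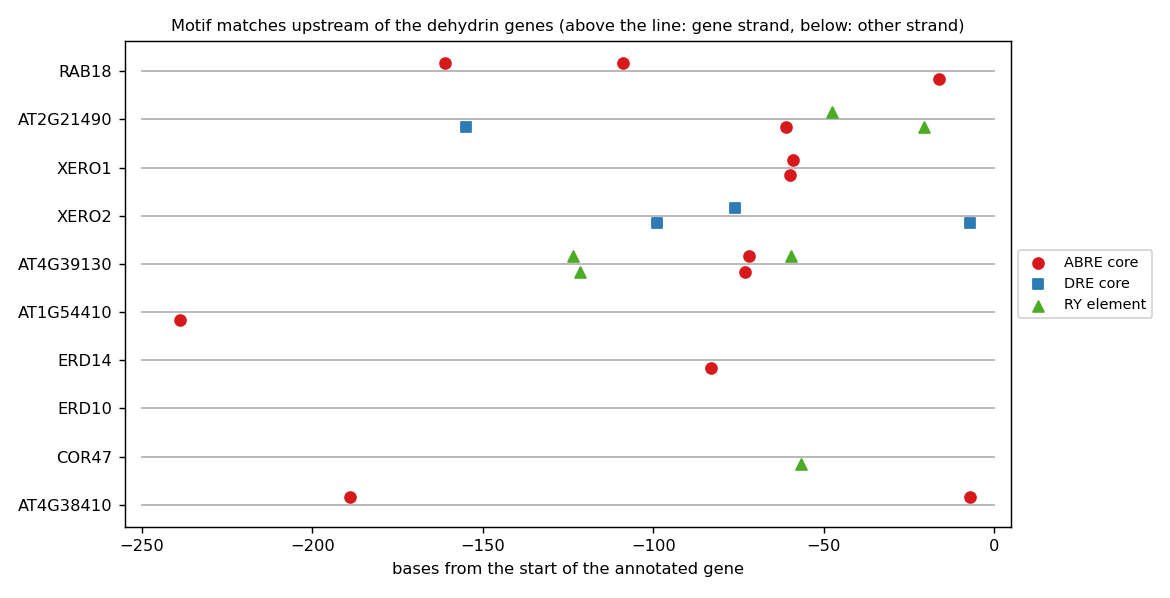
Matches to the ABRE core (red circles), the DRE core (blue squares) and the RY element (green triangles) in the 250 bases upstream of the 10 dehydrin genes, by distance from the annotated gene start. XERO2 shows DRE cores only, while RAB18, XERO1, AT1G54410, ERD14 and AT4G38410 show ABRE cores only.

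The libraries held between 803578 and 2359673 counts, and 3 counts, the floor used here, stood for between 0.964 and 3.87 CPM. DOG1 had between 2 and 10 counts in the brm-3dog1-4 and dog1-4 libraries and at least 124 counts in the brm-3 and Col-0 libraries. BRM had between 15 and 39 counts in brm-3dog1-4 and brm-3 and between 21 and 66 in dog1-4 and Col-0, and its level in brm-3 was below that in Col-0 (log2 fold change -1.29, edgeR adjusted p = 3.38e-05). All 9 seed storage and oil body markers were abundant, with sums between 65376 and 89630 CPM in brm-3dog1-4, between 82026 and 110060 CPM in brm-3, between 90786 and 129378 CPM in dog1-4 and between 77483 and 116755 CPM in Col-0. Of these 9, 2 were called higher and 4 lower in brm-3dog1-4 against Col-0 (22.8% and 23.3% of all tested genes). In brm-3 1 was higher and 1 lower (5.22% and 5.02% of all tested genes), and in dog1-4 also 1 and 1 (9.84% and 8.58%). Scaling mattered for this family. Set on library totals without TMM factors, all 10251 tested genes had a median log2 fold change against Col-0 of 0.58 (brm-3dog1-4), 0.03 (brm-3) and 0.22 (dog1-4), and with TMM of 0.015, 0.001 and -0.001, so every change below is relative to the bulk of the genes, and directions that turn on library totals are given beside it.

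Of the 10 members, 7 passed the filter on low counts. ERD10, COR47 and AT4G38410 did not. AT1G54410 and ERD14 had too few counts in Col-0 to pass without their mutant libraries. Their being called against Col-0, and called higher, therefore follows in part from how they came to be tested. In brm-3dog1-4 against Col-0 all 7 tested genes were called at an adjusted p under 0.05, where 46.1% of all tested genes were: 5 were lower (23.3% of all tested genes) and 2 higher (22.8%). The lower genes were RAB18, AT2G21490, XERO1, XERO2 and AT4G39130, the 5 members with the highest levels in wild-type seeds, and the higher ones AT1G54410 and ERD14. In dog1-4 against Col-0 the tested members gave 4 calls (18.4% of all tested genes), RAB18 and XERO1 lower (8.58%) and AT1G54410 and ERD14 higher (9.84%). In brm-3 against Col-0 they gave 3 calls (10.2% of all tested genes), all higher (5.22%) and 0 lower (5.02%): AT1G54410, ERD14 and XERO2. These comparisons share the Col-0 libraries. The libraries did not overlap with those of Col-0 in 6 tested members in brm-3dog1-4 (39.8% of all tested genes), in 3 in brm-3 (14.3%) and in 4 in dog1-4 (19.8%). Asking also for a log2 fold change over 1 left 2 higher (10.5%) and 2 lower (7.76%) members in brm-3dog1-4, 2 higher (2.07%) and 0 lower (0.966%) in brm-3, and 2 higher (4.2%) and 0 lower (2.04%) in dog1-4. On library totals, brm-3dog1-4 gave 2 higher and 3 lower calls (65.3% of all tested genes were called in either direction), brm-3 gave 3 higher and 0 lower (9.38%), and dog1-4 gave 3 higher and 2 lower (23%).

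**Figure D3:**
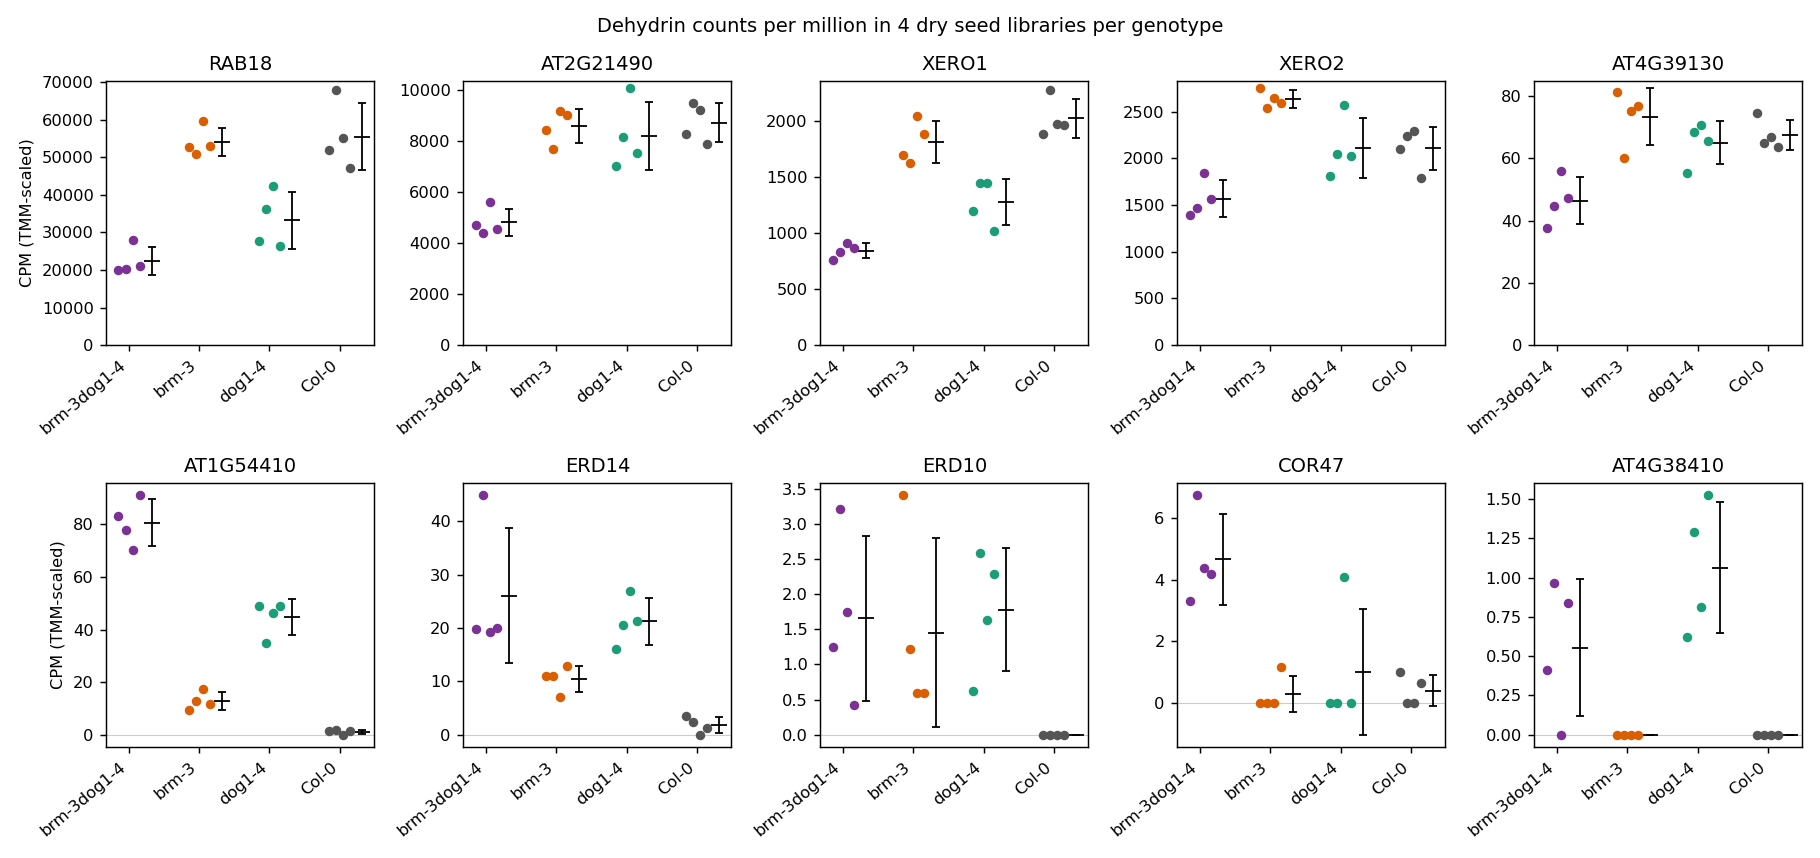
CPM (TMM-scaled, linear axes, one panel per gene) of the 10 dehydrins in each library, with brm-3dog1-4, brm-3, dog1-4 and Col-0 from left to right. Points are single libraries and black marks the mean ± SD of 4 libraries. RAB18, AT2G21490, XERO1, XERO2 and AT4G39130 have their lowest mean in brm-3dog1-4 by this scaling (on library totals XERO2 and AT4G39130 are not lower there than in Col-0), and AT1G54410 and ERD14 have theirs in Col-0.

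RAB18, an ABA-responsive dehydrin with Y-segments, carried most of the family's reads. It held 75.1 ± 1.17% of the dehydrin counts in brm-3dog1-4, 80.5 ± 0.682% in brm-3, 73.7 ± 1.94% in dog1-4 and 81 ± 1.26% in Col-0 (SD, n = 4 each), and it ranked between 2 and 4 among all genes by counts in brm-3dog1-4 and 2 in every library of the other genotypes. Its level was 20115, 20147, 28115 and 21193 CPM in the brm-3dog1-4 libraries and 52886, 50905, 59662 and 53058 CPM in the brm-3 libraries. It was 27646, 36275, 42464 and 26434 CPM in the dog1-4 libraries and 51882, 67882, 55108 and 47061 CPM in the Col-0 libraries. Every brm-3dog1-4 and dog1-4 library lay below every Col-0 library, and the brm-3 libraries lay within the range of Col-0. RAB18 was 2.48-fold lower in brm-3dog1-4 than its Col-0 level (log2 fold change -1.31, standard error 0.14, edgeR adjusted p = 8.45e-12) and 1.67-fold lower in dog1-4 (log2 fold change -0.74, standard error 0.14, edgeR adjusted p = 3.37e-05). In brm-3 the log2 fold change was -0.04 (edgeR adjusted p = 0.928), with a 95% interval of the fold of 0.81 to 1.18. On library totals it stayed lower in brm-3dog1-4 (log2 fold change -0.75) and dog1-4 (-0.53). The share of all counts is free of the TMM factors: it was 2.81 ± 0.316% in brm-3dog1-4, 4.75 ± 0.122% in brm-3, 3.29 ± 0.492% in dog1-4 and 4.75 ± 0.521% in Col-0 (SD, n = 4 each). Bulk counts do not tell a lower level per cell from fewer cells that express the gene.

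AT2G21490, a dehydrin with 3 Y-segment cores, was the second of the members in CPM. It had 4718, 4401, 5605 and 4568 CPM in the brm-3dog1-4 libraries and 8439, 7711, 9177 and 9036 CPM in the brm-3 libraries. It had 7025, 8176, 10077 and 7521 CPM in the dog1-4 libraries, against 8292, 9503, 9236 and 7880 CPM in the Col-0 libraries. The brm-3dog1-4 libraries did not overlap with those of Col-0, and both single mutants did. The decrease in brm-3dog1-4 was 1.81-fold (log2 fold change -0.86, standard error 0.12, edgeR adjusted p = 6.2e-09), and -0.30 in log2 on library totals (edgeR adjusted p = 0.000486). The log2 fold change was -0.02 in brm-3 and -0.09 in dog1-4 (edgeR adjusted p = 0.946 and 0.657), both of which turned to 0.01 and 0.13 on library totals.

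AT4G39130, a low-abundance member with 1 K-segment, was also lowest in brm-3dog1-4. It had 37.7, 44.7, 56.1 and 47.3 CPM in the brm-3dog1-4 libraries, between 60.1 and 81.3 CPM in the brm-3 libraries and between 55.3 and 70.9 CPM in the dog1-4 libraries. The Col-0 libraries had 74.7, 65.1, 66.7 and 63.7 CPM, which brm-3 and dog1-4 overlapped and brm-3dog1-4 did not. It was 1.49-fold lower in brm-3dog1-4 by TMM (log2 fold change -0.58, standard error 0.13, edgeR adjusted p = 0.000147), but its log2 fold change was -0.01 on library totals (edgeR adjusted p = 0.952), so the call depends on the scaling.

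XERO1 and XERO2 are neighbours that responded differently. XERO1, with a Y-segment and an ABRE core upstream, had 756, 828.8, 909 and 868 CPM in the brm-3dog1-4 libraries and 1695, 1625, 2040 and 1884 CPM in the brm-3 libraries. It had 1196, 1441, 1443 and 1021 CPM in the dog1-4 libraries and 1881, 2278, 1968 and 1961 CPM in the Col-0 libraries. All brm-3dog1-4 and dog1-4 libraries were below all Col-0 libraries, and those of brm-3 overlapped Col-0. XERO1 was 2.41-fold lower in brm-3dog1-4 (log2 fold change -1.27, standard error 0.11, edgeR adjusted p = 1.33e-15) and 1.59-fold lower in dog1-4 (log2 fold change -0.67, standard error 0.11, edgeR adjusted p = 1.48e-06). It was lower on library totals too, by -0.70 and -0.45 in log2. In brm-3 the log2 fold change was -0.16 (edgeR adjusted p = 0.402), with a 95% interval of the fold of 0.777 to 1.03.

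XERO2, also called LTI30, is a cold-induced dehydrin built from K-segments that binds membranes. It had 1389, 1471, 1842 and 1561 CPM in the brm-3dog1-4 libraries and 2757, 2542, 2648 and 2590 CPM in the brm-3 libraries. The dog1-4 libraries had 1812, 2043, 2570 and 2027 CPM and the Col-0 libraries 2100, 2236, 2295 and 1788 CPM. All 4 brm-3 libraries lay above all 4 Col-0 libraries, while those of brm-3dog1-4 and dog1-4 overlapped Col-0. XERO2 was 1.25-fold higher in brm-3 (log2 fold change 0.32, standard error 0.11, edgeR adjusted p = 0.0394), a call that was lost with RLE normalization (adjusted p = 0.0514), with DESeq2 (adjusted p = 0.0545) and in 8 of 16 fits that left out 1 library (any brm-3 library, Col-0 replicate 1 or 4, dog1-4 replicate 2 or brm-3dog1-4 replicate 4). In brm-3dog1-4 it was 1.35-fold lower by TMM (log2 fold change -0.43, edgeR adjusted p = 0.000742) but 0.13 on the log2 scale, that is higher, on library totals (edgeR adjusted p = 0.122). In dog1-4 the log2 fold change was 0.01 by TMM (edgeR adjusted p = 0.982) and 0.22 on library totals (edgeR adjusted p = 0.0276).

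**Figure D4:**
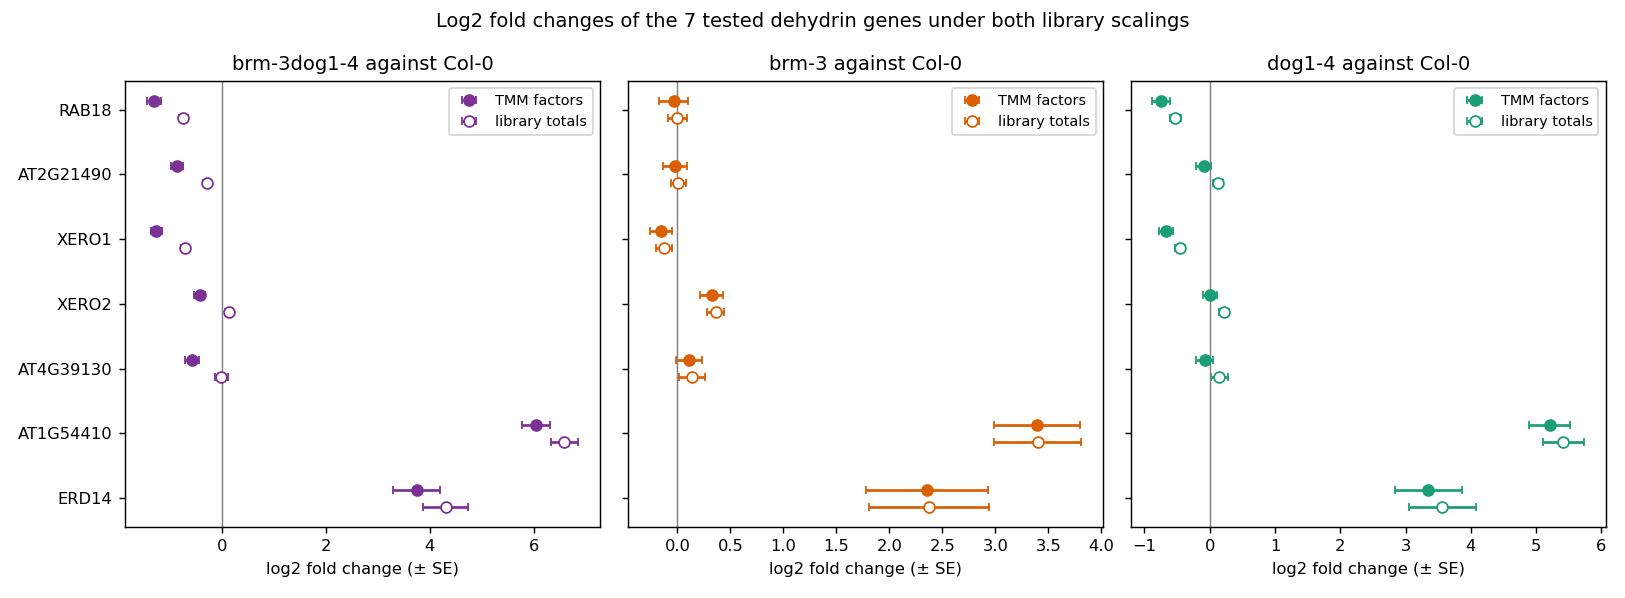
Log2 fold changes (± SE) of the 7 tested dehydrins in brm-3dog1-4, brm-3 and dog1-4 against Col-0, with TMM factors (filled) and on library totals (open); the horizontal ranges differ between panels. RAB18 and XERO1 are below 0 in brm-3dog1-4 and dog1-4 under both scalings, XERO2 crosses 0 in brm-3dog1-4, and the fitted values of AT1G54410 depend on the prior count because Col-0 was at or under 3 counts. Those of ERD14 depend on it in part, as its mean in Col-0 was below the floor.

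The ratio of XERO1 to XERO2 counts within a library does not depend on any library scaling. It was chosen after the values had been seen, and the p-values below do not allow for that choice. The ratio was 0.544, 0.563, 0.494 and 0.556 in the brm-3dog1-4 libraries and 0.615, 0.639, 0.77 and 0.727 in the brm-3 libraries. It was 0.66, 0.705, 0.561 and 0.504 in the dog1-4 libraries and 0.896, 1.02, 0.857 and 1.1 in the Col-0 libraries. Every mutant library had a lower ratio than every Col-0 library. The mean log2 ratio differed from Col-0 by -0.84 in brm-3dog1-4, -0.49 in brm-3 and -0.68 in dog1-4 (two-sided exact permutation p = 0.0286 each, the smallest that 4 against 4 libraries allow, and 0.0357 after Benjamini-Hochberg adjustment over 5 comparisons). It was lower by -0.35 in brm-3dog1-4 than in brm-3 (exact permutation p = 0.0286, adjusted p = 0.0357), and the difference of -0.16 from dog1-4 did not pass (exact permutation p = 0.229). XERO2 took 5.27 ± 0.234% of the dehydrin counts in brm-3dog1-4, 3.93 ± 0.252% in brm-3, 4.76 ± 0.515% in dog1-4 and 3.1 ± 0.276% in Col-0 (SD, n = 4 each). XERO1 took 2.85 ± 0.277% in brm-3dog1-4, 2.69 ± 0.129% in brm-3, 2.86 ± 0.272% in dog1-4 and 2.98 ± 0.248% in Col-0.

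**Figure D5:**
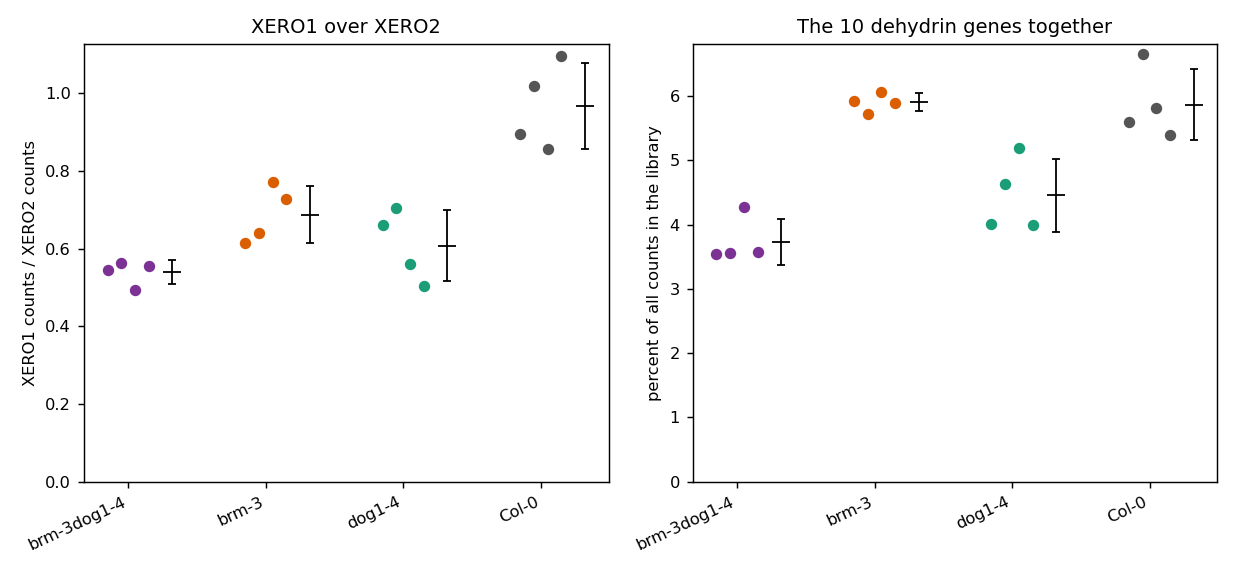
Left, XERO1 counts divided by XERO2 counts in each library. Right, the percent of all counts in a library that fell on the 10 dehydrin genes. Points are libraries and black marks the mean ± SD of 4, with brm-3dog1-4, brm-3, dog1-4 and Col-0 from left to right. The ratio is above 0.85 only in Col-0, and the family's share is lowest in brm-3dog1-4.

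Together the 10 genes took 3.74 ± 0.358% of all counts in brm-3dog1-4, 5.9 ± 0.141% in brm-3, 4.46 ± 0.572% in dog1-4 and 5.87 ± 0.551% in Col-0 (SD, n = 4 each). The shares ranged from 3.54 to 4.27% in brm-3dog1-4 and from 3.99 to 5.19% in dog1-4, both below all Col-0 libraries (5.39 to 6.65%), whereas brm-3 (5.73 to 6.07%) lay within the Col-0 range. RAB18 makes up most of this sum.

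AT1G54410, known as HIRD11 for its histidines, which bind metal ions, went the other way. It had 201, 242, 80 and 218 counts in the brm-3dog1-4 libraries and 14, 21, 29 and 20 in the brm-3 libraries. The dog1-4 libraries had 79, 27, 57 and 64 counts and the Col-0 libraries 3, 2, 0 and 2. As CPM this was 80.6 ± 8.93 in brm-3dog1-4, 12.8 ± 3.27 in brm-3, 44.8 ± 6.74 in dog1-4 and 1.11 ± 0.751 in Col-0 (SD, n = 4 each), and no 2 genotypes overlapped. Against Col-0, which was at or under the floor of 3 counts in each library, it was at least 38.9-fold higher in brm-3dog1-4, at least 6.19-fold higher in brm-3 and at least 21.6-fold higher in dog1-4 (edgeR adjusted p = 3.77e-28, 2.84e-09 and 6.44e-21). The gene passed the filter only through its mutant libraries, so a call of lower against Col-0 was hardly possible. These p-values are therefore no independent support for the direction. By counts AT1G54410 ranked between 928 and 1312 among all genes in brm-3dog1-4, against ranks between 11688 and 14697 in Col-0. Between mutants, brm-3dog1-4 exceeded brm-3 6.26-fold (log2 fold change 2.65, edgeR adjusted p = 4.95e-21) and dog1-4 1.78-fold (log2 fold change 0.83, edgeR adjusted p = 1.55e-06).

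ERD14, an acidic dehydrin that acts as a chaperone and binds calcium when phosphorylated, was also higher in all 3 mutants. It had 48, 140, 22 and 48 counts in the brm-3dog1-4 libraries and 16, 18, 12 and 22 in the brm-3 libraries. The dog1-4 libraries had 26, 16, 33 and 28 counts and the Col-0 libraries 7, 3, 0 and 2. Its level was 26.1 ± 12.6 CPM in brm-3dog1-4, 10.5 ± 2.41 CPM in brm-3, 21.3 ± 4.4 CPM in dog1-4 and 1.82 ± 1.52 CPM in Col-0 (SD, n = 4 each). Every mutant library was above every Col-0 library, and the brm-3dog1-4 and dog1-4 libraries overlapped. The fold over Col-0 was 13.4 in brm-3dog1-4 (95% interval 7.21 to 24.9), 5.11 in brm-3 (2.33 to 11.2) and 10.2 in dog1-4 (5.05 to 20.6), with edgeR adjusted p = 4.97e-07, 0.00996 and 4.67e-05. The Col-0 mean was below the floor there (2.07 CPM), so these folds depend in part on the prior count. ERD14 too passed the filter only through its mutant libraries, so its p-values against Col-0 are no independent support for the direction. Without Col-0 replicate 1, which held 7 of the 12 Col-0 counts, the log2 fold changes were 4.38 in brm-3dog1-4, 3.00 in brm-3 and 4.00 in dog1-4, against 3.74, 2.35 and 3.35 with it. Replicate 2 of brm-3dog1-4 stood apart at 45 CPM, the other libraries of that genotype having between 19.3 and 20.1 CPM.

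Markers of green leaves were higher in the same genotypes. Of 5 leaf markers, CAB1, CAB2 and CAB3 had at most 2 counts in any library and were not tested, and RBCS1A and RCA were both tested. The sum of the 5 was between 64.8 and 115 CPM in brm-3dog1-4, between 26.7 and 32.9 CPM in brm-3, between 36.1 and 53.4 CPM in dog1-4 and between 7.32 and 14.5 CPM in Col-0. RBCS1A was higher in brm-3dog1-4 (log2 fold change 3.24), brm-3 (1.49) and dog1-4 (2.07), and RCA was higher in brm-3dog1-4 (2.47) and dog1-4 (2.19), with 0.87 in brm-3 (edgeR adjusted p = 0.257). The part of this in the values of AT1G54410 and ERD14 was not tested.

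The 3 members below the filter were hardly counted; of these, COR47 and ERD10 are acidic dehydrins known for induction by cold and dehydration. COR47 had 8, 21, 5 and 10 counts in the brm-3dog1-4 libraries, 0, 0, 0 and 2 in those of brm-3 and 0, 0, 5 and 0 in those of dog1-4, against 2, 0, 0 and 1 in the Col-0 libraries. Set against the floor of 3 counts per library it was at least 2.25-fold higher in brm-3dog1-4 than in Col-0 and at least 2.51-fold higher than in brm-3. ERD10 had between 1 and 10 counts in brm-3dog1-4, between 1 and 5 in brm-3, between 1 and 3 in dog1-4 and 0 in each Col-0 library. Its mean CPM in each mutant was below the floor in Col-0 (2.07 CPM), so no fold is given. AT4G38410 had between 0 and 3 counts in brm-3dog1-4, 1 or 2 in dog1-4, and 0 in all 8 brm-3 and Col-0 libraries, which allows up to 3 counts in each. When all 21204 genes with a count were tested with no filter, COR47 (edgeR adjusted p = 4.31e-05) and ERD10 (edgeR adjusted p = 0.002) passed in brm-3dog1-4 against Col-0 and AT4G38410 did not (edgeR adjusted p = 0.0847). ERD10 also passed in brm-3 (edgeR adjusted p = 0.0369) and dog1-4 (edgeR adjusted p = 0.0168) against Col-0, all with fold changes that depend on the prior count. The share of the 21204 genes that passed without the filter is not given, so these passes are not set beside it.

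The double mutant was then set against each single mutant, which asks what the second mutation adds. Against brm-3, all 7 tested members were called (38.2% of all tested genes), with 5 lower (19.7%) and 2 higher (18.5%), and none of them overlapped (33.5% of all tested genes). With a log2 fold change over 1, 2 were lower (4.87%) and 2 higher (6.88%). RAB18 (log2 fold change -1.27, edgeR adjusted p = 3.42e-11) and XERO1 (-1.11, edgeR adjusted p = 3.22e-13) changed most among the lower ones, followed by AT2G21490 (-0.83), XERO2 (-0.75) and AT4G39130 (-0.69). ERD14 was 2.62-fold higher (log2 fold change 1.39, edgeR adjusted p = 0.00106). On library totals AT4G39130 was no longer called (log2 fold change -0.15, edgeR adjusted p = 0.308) and the other 4 stayed lower.

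Against dog1-4, brm-3dog1-4 gave 6 calls among the 7 tested members (27.6% of all tested genes), 5 lower (15.4%) and AT1G54410 higher (12.1%), and 3 did not overlap (23.6%). With a log2 fold change over 1, 0 were higher (3.75%) and 0 lower (3.85%). AT2G21490 (log2 fold change -0.77, edgeR adjusted p = 3.42e-07) and XERO1 (-0.60, edgeR adjusted p = 9.93e-06) were lower with no overlap of libraries. RAB18 (log2 fold change -0.57, edgeR adjusted p = 0.00103), AT4G39130 (-0.50) and XERO2 (-0.43) were lower with overlap. ERD14 did not pass (log2 fold change 0.39, edgeR adjusted p = 0.351), with a 95% interval of the fold of 0.887 to 1.94; without brm-3dog1-4 replicate 2 its log2 fold change was -0.08. On library totals XERO2 (log2 fold change -0.09, edgeR adjusted p = 0.334) and AT4G39130 (-0.16, edgeR adjusted p = 0.34) were no longer called, and ERD14 was called higher (0.74, edgeR adjusted p = 0.0463).

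The interaction contrast sets the log2 change of the double mutant against the single mutants' changes added up. Of the 7 tested members 4 were called, all below the sum (6.84% of all tested genes were called below, 1.95% above and 8.79% in either direction). With an interaction over 1 on the log2 scale 1 was below (2.17%) and 0 above (0.917%). AT2G21490, which differed from Col-0 in neither single mutant by the test, was 0.74 below the sum on the log2 scale (interaction -0.74, standard error 0.16, edgeR adjusted p = 0.00113). XERO2 had an interaction of -0.76 (standard error 0.15, edgeR adjusted p = 0.000395) and AT4G39130 one of -0.61 (standard error 0.18, edgeR adjusted p = 0.0238). On library totals the interactions were -0.43 for AT2G21490, -0.45 for XERO2 and -0.29 for AT4G39130, the last not called (edgeR adjusted p = 0.292); its call was also lost without Col-0 replicate 4, dog1-4 replicate 3, brm-3 replicate 1 or brm-3dog1-4 replicate 1. AT1G54410 rose in brm-3dog1-4 by less than the sum (edgeR adjusted p = 5.12e-05), but its interaction rests on Col-0 libraries at the floor. RAB18 (interaction -0.53, edgeR adjusted p = 0.0746), XERO1 (-0.44, edgeR adjusted p = 0.0501) and ERD14 (-1.96, edgeR adjusted p = 0.0727) did not pass.

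The other genes of the pathway were read from lists of known regulators of dehydrin promoters and of other LEA and cold-regulated genes. Of 21 regulators, 13 were tested, and in brm-3dog1-4 against Col-0 8 were higher and 3 lower (22.8% and 23.3% of all tested genes), with a median log2 fold change of 0.48 beside 0.02 for all tested genes. EEL, a bZIP factor that competes with ABI5 at ABRE sites, was higher in brm-3dog1-4 (log2 fold change 2.02, edgeR adjusted p = 1.96e-21), brm-3 (0.97) and dog1-4 (0.82). ABI5, the bZIP factor of the ABA response in seeds, was lower in brm-3dog1-4 (log2 fold change -1.09, edgeR adjusted p = 4.89e-14) and dog1-4 (-0.77), and its log2 fold change in brm-3 was -0.23 (edgeR adjusted p = 0.136). CBF1, CBF2 and CBF3, the cold factors of the DRE site, had 0 counts in each library. DREB2A, of the same class, averaged 459 CPM in brm-3dog1-4, 692 in brm-3, 363 in dog1-4 and 515 in Col-0. It was higher in brm-3 (log2 fold change 0.43, edgeR adjusted p = 0.000932) and lower in dog1-4 (-0.51, edgeR adjusted p = 5.21e-05). In brm-3dog1-4 it was -0.16 (edgeR adjusted p = 0.153), and 0.40 on library totals (edgeR adjusted p = 6.96e-05). In brm-3 3 regulators were higher and 1 lower (5.22% and 5.02% of all tested genes), and in dog1-4 4 were higher and 3 lower (9.84% and 8.58%). On library totals 10 regulators were higher and 1 lower in brm-3dog1-4, where 65.3% of all tested genes were called and the median of all tested genes was 0.58, beside 1.04 for the regulators.

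Of 22 other LEA and cold-regulated genes 18 were tested. In brm-3dog1-4 against Col-0 1 was higher and 13 lower (22.8% and 23.3% of all tested genes). Their median log2 fold change was -0.54 beside 0.02 for all tested genes. On library totals 5 were higher and 5 lower, where 65.3% of all tested genes were called in either direction. The median was then 0.02 beside 0.58 for all tested genes. ECP31 (log2 fold change -1.93, edgeR adjusted p = 1e-21) and EM6 (-2.10, edgeR adjusted p = 2.04e-21), LEA proteins of the late embryo, were lower in brm-3dog1-4. They stayed lower on library totals (-1.37 and -1.54). In brm-3 4 were higher and 2 lower (5.22% and 5.02% of all tested genes), with a median of 0.20. On library totals 8 were higher and 2 lower, where 9.38% of all tested genes were called in either direction. The median was then 0.23 beside 0.03 for all tested genes. In dog1-4 0 were higher and 9 lower (9.84% and 8.58%), with a median of -0.32. On library totals 1 was higher and 7 lower, where 23% of all tested genes were called in either direction. The median was then -0.10 beside 0.22 for all tested genes. EM6 was lower in dog1-4 (log2 fold change -1.001) and in brm-3 (-0.46), and so was ECP31 (-0.92 in dog1-4 and -0.40 in brm-3).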

How the data were processed

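Total RNA of dry seeds was profiled by 3′RNA-Seq in 16 libraries, 4 per genotype. The deposited counts are reads assigned to each locus, 1 file per library, left unnormalized by the authors. The submitters' processing notes name STAR 2.7.8a, the TAIR10 build and DESeq2; the counting program, strand use and molecular identifiers are not given in the sources used here. TAIR10.1 names matched 37051 of 37336 identifiers.

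The deposited counts were fitted in one model of all 16 libraries with edgeR 4.0.16 in R 4.3.3 (TMM, filterByExpr by genotype, robust quasi-likelihood test, Benjamini-Hochberg adjustment over 10251 genes of 21204 with a count). A call is an adjusted p under 0.05. CPM uses library sizes summed over the tested genes and adjusted by TMM, and the floor is 3 counts per library. Intervals of folds are 95% normal intervals from the standard error of the fit, which includes the spread between libraries. Ratios were compared by exact permutation tests. Levels in dry seeds were checked against seed and leaf markers, and the fits were tested on simulated data.

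Alternatives were RLE normalization, DESeq2 1.42.0, no filter, at least 10 counts in every library, a fit restricted to the pair of genotypes, a replicate block, a log2 fold change over 1, and each library left out in turn. Library totals without TMM factors, family shares and the XERO1 to XERO2 ratio were chosen after seeing the data. The members and lists were chosen with earlier results of these data known. The genes named from a list of the pathway are the 2 with the smallest p in brm-3dog1-4 against Col-0. The DRE-site factors CBF1, CBF2, CBF3 and DREB2A were named in addition and not by this rule. Correlations between libraries did not pair them by replicate number, and no library of a genotype repeated another within sampling noise. Upstream windows, coding sequence and coordinates are those of RefSeq TAIR10.1, translated with the standard code.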

Additional observations from a re-analysis of the deposited data

Results flagged for a closer look

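Dixon's ratio was computed in 31 groups of 4 libraries, those in which a dehydrin had more than 3 counts in some library. In 3 of these groups a library's distance from the others was over the critical value (0.829). Chance gives about 1 in 20 groups. RAB18 in brm-3dog1-4 replicate 3 had 28115 CPM, above the other brm-3dog1-4 libraries. COR47 in dog1-4 replicate 3 had 4.07 CPM, from 5 counts, with 0 counts in the other dog1-4 libraries. ERD14 in brm-3dog1-4 replicate 2 had 45 CPM.

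In 4 members the change in brm-3dog1-4 differed from the sum of the changes in the single mutants by the test of the interaction itself. On the log2 scale the difference was -2.56 for AT1G54410, where it depends on the prior count, -0.74 for AT2G21490, -0.76 for XERO2 and -0.61 for AT4G39130.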

How the results depend on the processing

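The number of dehydrins called fell to 1 in brm-3 and 2 in dog1-4 against Col-0 with at least 10 counts asked of every library, which removes AT1G54410 and ERD14. With a log2 fold change over 1 it was 2 in dog1-4 and 4 in brm-3dog1-4 against Col-0, 0 against dog1-4, 4 against brm-3 and 1 for the interaction. The interaction gave 7 calls with no filter. With the replicate number as a block it also gave 7, against 4 without; the block left the other 5 counts as they were. Same-numbered libraries did not deviate together (correlations from -0.03 to 0.07). Whether they share a preparation that affects some genes was not tested. With each library left out in turn, the counts were 2 to 3 in brm-3, 4 to 4 in dog1-4 and 7 to 7 in brm-3dog1-4 against Col-0, 6 to 6 against dog1-4, 7 to 7 against brm-3 and 3 to 6 for the interaction. The shares of all tested genes called in the fits with another filter, the block or a library left out are not given. These counts therefore show how the members' calls moved and not how they compare with all genes.

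Of the values that changed sign, only that of XERO2 in brm-3dog1-4 against Col-0 had been called. On library totals the log2 fold change was 0.0091 for AT2G21490 in brm-3, 0.13 for AT2G21490 and 0.15 for AT4G39130 in dog1-4 and 0.13 for XERO2 in brm-3dog1-4. XERO2 in dog1-4 was -0.0208 with no filter and -0.0004 with the block. With a library left out, log2 fold changes ranged from -0.1116 to 0.0773 for RAB18 and from -0.0734 to 0.027 for AT2G21490 in brm-3, from -0.1063 to 0.0705 for XERO2 and from -0.1303 to 0.0059 for AT4G39130 in dog1-4, and from -0.0765 to 0.533 for ERD14 in brm-3dog1-4 against dog1-4. The call of XERO2 in brm-3 was lost in 8 of 16 such fits, and the interaction of AT4G39130 in 4. The cause was not tested. Libraries of 803578 to 2359673 counts limit AT1G54410, ERD14, COR47, ERD10 and AT4G38410 most, since 3 counts stand for up to 3.87 CPM.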
